A study of Mus musculus with 120 samples.

Results

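The interferon regulatory factor (Irf) family was followed in single group 2 innate lymphoid cells (ILC2) of mice, 120 in all, which make the cytokines interleukin 13 (IL-13) and IL-5. The 8 genes described are Irf1, Irf2, Irf3, Irf4, Irf5, Irf7, Irf8 and Irf9, found by matching the Ensembl identifiers of the count files to gene symbols, out of 46078 identifiers of which 13264 had a read in any cell. All 8 had a read in at least 1 cell. Cells came from the pooled mesentery of 20 wildtype C57BL/6 mice, were sorted for c-Kit and Sca-1 and against lineage markers, and were expanded in culture with IL-2. They were then stimulated with IL-2 and IL-33 under live imaging of the secretion of 1 cytokine, called the index, which was IL-13 or IL-5. For each index there were 5 pre-stimulation cells, 11 transition cells at each of 30, 60 and 90 min after the onset of secretion, and, at a fixed late time, 11 activated cells that secreted the index cytokine and 11 silent cells that did not. All cells shared the genotype and the culture conditions, and the labels give no animal or culture for a single cell and no animal age. Each group was therefore treated as 1 sample, cells were not treated as replicates, and no test was made.

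Irf proteins are transcription factors that bind DNA motifs built on the letters GAAA, and they are best known for control of interferon genes and of genes that interferons induce. Irf3 and Irf7 are switched on by kinases of innate sensing and start interferon transcription, and Irf9 is the DNA-binding part of the complex that carries the type I interferon signal to the nucleus. Irf1 activates and Irf2 competes at shared sites, Irf5 acts after Toll-like receptors and the adaptor Myd88, which the IL-33 receptor also uses, and Irf4 and Irf8 are lymphoid and myeloid factors that bind beside partners such as Batf or ETS proteins.

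The results turn on Irf8, Irf5 and Irf4, and the 250 bases upstream of their RefSeq start sites (GRCm38.p6, plus strand, 5′ to 3′) are shown to place the family's known regulators beside the levels. Irf8 lies on chromosome 8 from 120736358 to 120756694, Irf5 on chromosome 6 from 29526625 to 29541871, and Irf4 on chromosome 13 from 30749226 to 30766976, all on the plus strand (GENCODE, GRCm38). Capitals mark matches to TTCNNNGAA, the letters of a GAS-type element bound by STAT dimers, which read the same on both strands.
Irf8 (8, 120736108 to 120736357): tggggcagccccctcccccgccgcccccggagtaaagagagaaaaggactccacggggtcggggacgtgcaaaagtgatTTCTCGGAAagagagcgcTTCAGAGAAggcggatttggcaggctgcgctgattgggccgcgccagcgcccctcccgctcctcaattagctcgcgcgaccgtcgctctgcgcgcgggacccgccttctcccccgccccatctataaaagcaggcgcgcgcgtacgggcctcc
Irf5 (6, 29526375 to 29526624): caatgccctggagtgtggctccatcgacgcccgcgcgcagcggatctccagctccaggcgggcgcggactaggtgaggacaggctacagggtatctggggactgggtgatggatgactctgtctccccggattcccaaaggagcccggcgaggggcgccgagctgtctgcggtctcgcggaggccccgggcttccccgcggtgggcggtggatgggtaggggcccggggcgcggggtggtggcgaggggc
Irf4 (13, 30748983 to 30749232): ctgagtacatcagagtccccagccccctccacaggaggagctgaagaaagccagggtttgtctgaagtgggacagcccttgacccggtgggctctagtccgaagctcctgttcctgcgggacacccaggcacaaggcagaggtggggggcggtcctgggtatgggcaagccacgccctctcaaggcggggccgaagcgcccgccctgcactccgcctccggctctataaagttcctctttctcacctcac
The Irf8 window held 2 such matches, TTCTCGGAA from 171 to 163 and TTCAGAGAA from 153 to 145 bases before the start. Of all 32851 windows of 250 bases before a RefSeq start, 7.02% held at least 1. The Irf1 window also held a GAS-type match, TTCCCCGAA. The Irf2 window held a GAS-type match, a kB-type match (GGGATTTCC, from GGGNNTTCC, 4.98% of windows), an ISRE-type match (GAAAATGAAA, a pair of GAAA blocks with any 2 letters between them, 2.98%) and an overlapping ETS-IRF composite (GGAAGTGAAA, GGAA and GAAA with any 2 letters between them, 2.30%). None of these letters, nor the AP-1 letters TGANTCA (6.75%), were in the windows of Irf3, Irf4, Irf5 and Irf7 on either strand. For Irf9 RefSeq lists 2 windows, and the one searched, which held none either, has its start site 414 bases inside the GENCODE gene. A match is a description of letters only.

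Each cell was 1 library of 3′ ends, and depth is the number of reads counted in genes, 254001 in the median cell, 65 in the lowest and 785198 in the highest. In 6 cells it was below 84667, the median divided by 3, and these cells are in the 30, 60 and 90 min and silent groups of the IL-5 index and the 90 min group of the IL-13 index. Levels are counts per 1000000 gene reads (CPM) of the reads summed over a group, with exact 95% Poisson intervals. Like all intervals below, these cover the counting of reads only and not the spread of cells. The libraries had no molecular identifiers, so reads are not molecules and the intervals are too narrow for counts of molecules. Of 192 lowest and highest levels on leaving out any 1 cell, 88 fell outside them. Levels were not compared between genes. The titles carry 2 dates for each index, with pre-stimulation cells on the first only, so index and date cannot be told apart. All 15 genes of the ILC2 marker list were read, with Ly6a (Sca-1) in 120 cells, Gata3 in 116 and Il1rl1, the IL-33 receptor, in 113. Of markers of cells that express Irf4, Irf5 or Irf8 strongly, Cd79a, Cd79b, Ms4a1, Pax5 and Jchain of the 7 of B and plasma cells were at 0 in all cells while Ighm was read in 41 of 120 cells, at up to 276 CPM by group (IL-13 pre-stimulation), 6 of 7 of macrophages and monocytes were at 0 (Lyz2, Csf1r, Cd14, Itgam, Fcgr1 and Mrc1), and 3 of 7 of dendritic cells were at 0 (Siglech, Itgax and Clec9a). All 6 markers of natural killer cells and ILC1 were at 0. Of the other dendritic cell markers, Zbtb46 was read in 14 cells, Tcf4 in 4, Xcr1 in 3 and Flt3 in 1. The T cell list was read at 327 to 1884 CPM by group. Its Trbc2 was read in 98 of 120 cells, Cd3g in 26, Trbc1 in 24, Cd3d in 4, Trac in 4 and Cd3e in 3, with Cd4 and Cd8a at 0.

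Irf5 was read in transition cells and in no pre-stimulation cell. At 1 read or more it was found in 38 of 66 transition cells of both indexes, at 201 CPM (95% interval 194 to 208), against 4 of 22 activated cells at 16.3 CPM, 4 of 22 silent cells at 25.6 CPM and 0 of 10 pre-stimulation cells.

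Among IL-13 cells, the 5 before stimulation were each at 0. Irf5 at 30 min was read in 8 of 11 cells, from 0 through a median of 127 to 1045 CPM, and the group level was 381 CPM (358 to 405). At 60 min it was read in 10 of 11 cells, from 0 through 275 to 1367 CPM, with a group level of 393 CPM (371 to 416). At 90 min 5 of 11 cells had a read and the level was 75.0 CPM (62.5 to 89.4), which lay below the 30 and 60 min levels on leaving out any 1 cell and was 37.3 CPM without replicate 10. Activated cells stood at 35.4 CPM with a read in 4 cells, or 17.9 CPM without replicate 6, and silent cells at 3.02 CPM with all 8 reads in 1 cell.

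In the IL-5 index, Irf5 was again at 0 in each of the 5 pre-stimulation cells. At 30 min it was read in 7 of 11 cells, from 0 through 55.9 to 1145 CPM, with a group level of 159 CPM (146 to 173), of which replicate 1 gave 53.5% of the reads and without which it was 80.0 CPM. The level was 83.4 CPM in 5 cells at 60 min (50.5 CPM without replicate 7) and 35.5 CPM in 3 cells at 90 min (15.2 CPM without replicate 4). It was 0 in all 11 activated cells, where the exact 95% interval of a count of 0 runs up to 0.988 CPM, and 45.0 CPM in 3 silent cells (23.8 CPM without replicate 11). The ranges of neighbouring levels on leaving out any 1 cell overlapped for most neighbours in the order of the 12 groups, but not between the 30 min groups of the IL-13 and IL-5 indexes or between IL-13 activated and silent cells.

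Irf8 was also read mostly in transition cells, in 22 of 33 of the IL-5 and 12 of 33 of the IL-13 index. It was read in 34 of 66 transition cells at 184 CPM (178 to 191), in 3 of 22 activated cells at 16.3 CPM, in 1 of 22 silent cells at 5.60 CPM, and in 0 of 10 pre-stimulation cells.

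Among IL-5 cells, Irf8 at 30 min was read in 10 of 11 cells, from 0 through 242 to 932 CPM, and the 1 cell without a read was the library with 73 gene reads. The group level was 351 CPM (332 to 371), with 378 CPM in the 5 cells of the first date and 330.2 CPM in the 6 of the second. At 60 min the level was 115 CPM in 8 of 11 cells, with a median cell of 21.7 CPM, or 74.7 CPM without replicate 5, which held 41.6% of the reads, and at 90 min 97.9 CPM in 4 of 11 cells. Activated cells had 5 reads, all in 1 cell, at 1.34 CPM, and silent cells 32 reads, all in replicate 6, at 10.4 CPM. The 30 min level stayed above that of every other group on leaving out any 1 cell, including the second in the order, the 60 min cells of the IL-13 index.

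Fewer IL-13 cells had a read of Irf8. At 30 min 3 of 11 cells had a read, all 3 on the first date, and the group level was 79.6 CPM (69.2 to 91.0). Replicate 5 gave 78.4% of the 213 reads at 762 CPM in that cell, and without it the group level was 18.7 CPM. At 60 min 4 of 11 cells had a read, from 0 through 0 to 1140 CPM, and the group level was 217.5 CPM (201 to 235), or 84.1 CPM without replicate 9, which held 66.2% of the reads. At 90 min 5 cells had a read and the level was 172 CPM (152 to 193), or 88.3 CPM without replicate 2, which held 52.1%. In activated cells replicate 6 held 99.1% of the 108 reads, and the level was 33.8 CPM with it and 0.345 CPM without it. Silent cells had 0 reads.

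Irf4, which in T cells is induced by antigen receptor signals and pairs with Batf, followed a different course, with reads in activated cells. It was read in 16 of 22 activated cells of both indexes at 222 CPM (211 to 233), in 6 of 66 transition cells at 27.8 CPM, in 4 of 22 silent cells at 36.4 CPM, and in 0 of 10 pre-stimulation cells.

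Among IL-5 cells, Irf4 was read in 10 of 11 activated ones, from 0 through 402 to 829 CPM, and the group level was 315 CPM (297 to 333), with 462 CPM on the first date and 206 CPM on the second. In silent cells 4 of 11 had a read, all on the first date, from 0 through 0 to 393 CPM, at a level of 67.8 CPM (58.9 to 77.7), or 24.8 CPM without replicate 5, which held 67.8% of the reads. At 60 min 395 reads gave 116 CPM, but replicate 3 held 99.2% of them, and the level without it was 0.996 CPM. Likewise at 30 min replicate 5 held 96.4% of 55 reads, and at 90 min there was 1 read. In the IL-13 index, Irf4 was read in 6 of 11 activated cells, from 0 through 6.46 to 574 CPM, at a level of 114 CPM (102 to 126). All 5 pre-stimulation, 33 transition and 11 silent cells of that index were at 0.

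**Figure D1:**
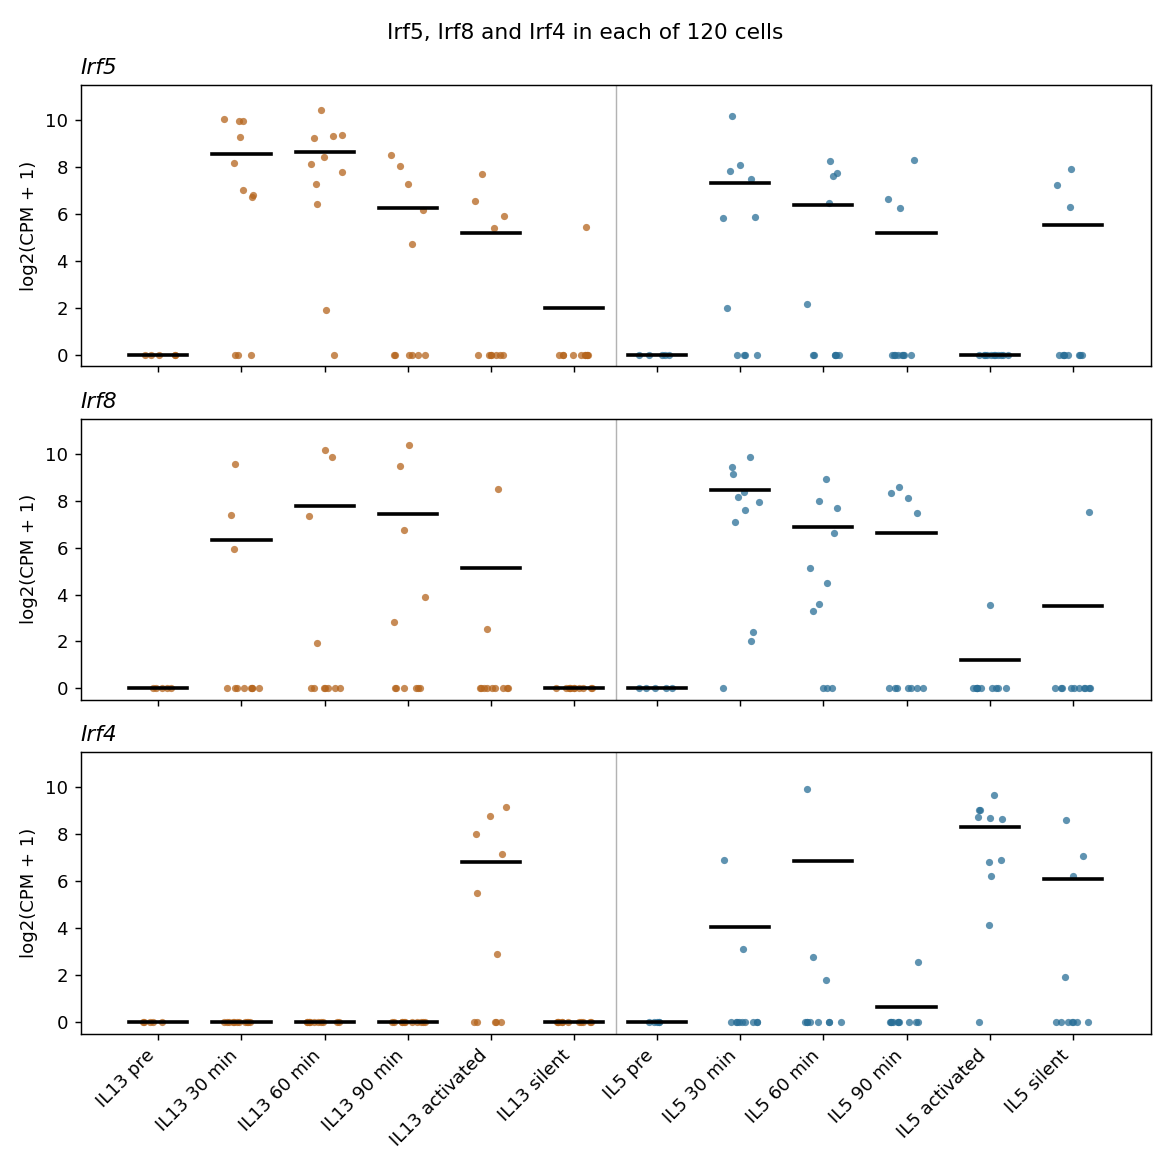
Level of Irf5, Irf8 and Irf4 in each cell, as log2(CPM + 1) on the vertical axis, against the 6 states of the IL-13 (left) and IL-5 (right) index. Points are cells, jittered sideways, and bars are the level of the summed reads of the group. All 10 pre-stimulation cells lie at 0 for all 3 genes, Irf5 and Irf8 points lie mostly in the 30, 60 and 90 min groups, and 10 of 11 IL-5 activated cells lie above 0 for Irf4.

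The counts of cells were close at equal depth. With each cell thinned at random to 100000 gene reads and shallower cells left out, Irf5 was read in 8 of 11, 10 of 11 and 3 of 8 cells at 30, 60 and 90 min in the IL-13 index and in 6, 5 and 3 of 10 cells in the IL-5 index. Irf8 after thinning was read in 8, 8 and 4 of 10 IL-5 transition cells at the 3 times and in 3 of 11, 3 of 11 and 3 of 8 IL-13 cells. Irf4 after thinning was read in 10 of 11 IL-5 and 5 of 11 IL-13 activated cells.

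Irf5 and Irf8 were read together in some cells and singly in others. Of the 66 transition cells, 38 had a read of Irf5 and 34 of Irf8, with 19 of both, 19 of Irf5 alone, 15 of Irf8 alone and 13 of neither. With at least 5 reads asked of each gene, 34 had Irf5 and 27 Irf8, with 13 both, 21 Irf5 alone, 14 Irf8 alone and 18 neither. Whether the number with both differs from that of genes read independently was not tested. At 30 min in the IL-5 index, where 10 of 11 cells had Irf8, all 7 cells with Irf5 also had it. In the IL-13 index, where 3 of 11 cells had Irf8, 2 of 8 cells with Irf5 also had it. Of the 16 activated cells with Irf4, 1 also had Irf5 and 1 also had Irf8. Among all values of the 8 genes, 36 were of 1 to 3 reads, and in 32 of these a second cell with that state and title date had at least 20 reads of the gene. Whether such low reads passed between libraries that shared a pool was not tested.

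**Figure D2:**
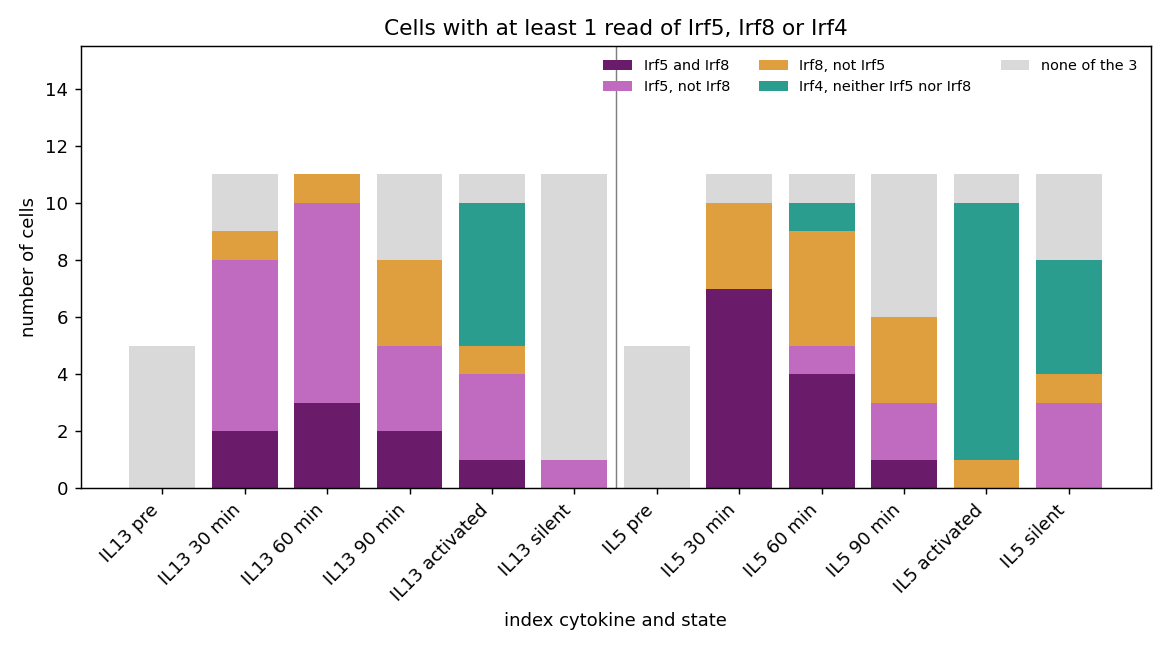
Number of cells (vertical axis) with at least 1 read of Irf5 and Irf8, of only 1 of these, of Irf4 with neither, or of none of the 3, in each state of each index. The 5 pre-stimulation cells of each index hold none, the IL-5 30 min bar holds 7 cells with both Irf5 and Irf8, and the IL-5 activated bar holds 9 cells with Irf4 and neither of the others.

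Marker levels were given in the cells that carried these genes, since Irf8 is also a myeloid and B cell gene. In the 27 transition cells with at least 5 reads of Irf8, the ILC2 list summed to 12655 CPM, against 11943 CPM in the 39 others, and all 27 had a read of it. The macrophage list was at 0 in both sets. The B and plasma cell list summed to 70.1 CPM against 166 CPM in the others, all of it Ighm, and the dendritic cell list to 42.5 against 42.8 CPM. In the 34 transition cells with at least 5 reads of Irf5, the ILC2 list summed to 12301 CPM against 12283 CPM in the 32 others, the macrophage list was again at 0 in both sets, and the B and plasma cell list, again only Ighm, summed to 166 against 60.7 CPM. The dendritic cell list summed to 74.3 CPM in 11 of these 34 cells against 3.32 CPM in 3 of the 32 others. Siglech, Itgax and Clec9a were at 0, so the reads of this list were of Zbtb46, Tcf4, Xcr1 or Flt3, and its part in the Irf5 values was not tested. In the 15 activated cells with at least 5 reads of Irf4, the macrophage list came to 30.3 CPM, from 1 cell with Adgre1, the B and plasma cell list to 17.0 CPM against 13.1 CPM in the 7 others, and the dendritic cell list to 28.6 against 1.81 CPM, which was not tested either. The mast cell and basophil list was higher in the cells with each gene, at 122 against 73.8 CPM for Irf8 (4 of 27 and 6 of 39 cells with a read), 127 against 60.7 CPM for Irf5 (8 of 34 and 2 of 32 cells) and 185 against 70.1 CPM for Irf4 (2 of 15 and 1 of 7 cells). The T cell list stood at 946 against 882 CPM for Irf8, 1029 against 771 CPM for Irf5 and 367 against 513 CPM for Irf4. The stromal, endothelial and fat cell list stood at 136 against 56.0 CPM for Irf8, 92.0 against 99.7 CPM for Irf5 and 1.70 against 3.17 CPM for Irf4, and the natural killer and ILC1 list was at 0 throughout. The part of these lists in the results was not tested.

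Irf9, which binds DNA beside Stat2 after type I interferon, was read in transition cells of both indexes. For IL-5 it was read in 13 of 33 of these at 79.6 CPM (73.8 to 85.7), and in none of the 5 pre-stimulation, 11 activated and 11 silent cells of that index. The level was 60.3 CPM in 2 cells at 30 min, both on the second date and at 13.9 CPM without replicate 11, 92.2 CPM in 5 cells at 60 min (58.8 CPM without replicate 10) and 93.5 CPM in 6 cells at 90 min, and on leaving out any 1 cell the ranges of the 3 times overlapped. In the IL-13 index, the 5 pre-stimulation cells were at 0, 0, 0, 0 and 579 CPM, so that replicate 5 carried all 125 reads of the group. Transition cells of the IL-13 index stood at 35.0 CPM with a read in 7 of 33 cells, of which the 60 min group had 77.1 CPM in 4 cells (42.4 CPM without replicate 2). Activated cells stood at 4.38 CPM in 1 cell, and silent cells at 26.4 CPM in 2 cells (2.97 CPM without replicate 9).

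Irf1, an activator that interferon gamma and NF-kB induce, was the only member with a read in all 12 groups. It was read in 41 of 120 cells. In pre-stimulation cells of the IL-13 index the values were 16.3, 0, 224.6, 0 and 106.5 CPM, and in those of the IL-5 index 0, 0, 0, 64.8 and 0 CPM. Group levels ran from 7.81 CPM at 90 min in the IL-13 index to 89.4 CPM (79.1 to 101) in IL-5 silent cells, and neighbours in the order overlapped on leaving out any 1 cell except for 1 pair, the 60 min IL-13 and the 30 min IL-5 cells. Activated cells of both indexes had a read in 3 of 22 cells, at 18.2 CPM, and silent cells in 11 of 22, at 60.0 CPM.

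Irf2, the competitor of Irf1 at shared sites, was read in 29 cells. It was highest at 90 min in the IL-5 index, at 133 CPM (117 to 151), but replicate 7 gave 57.0% of the reads and the level was 61.6 CPM without it. Silent IL-13 cells stood at 87.3 CPM, or 39.7 CPM without replicate 6, which gave 59.7%. It was at 0 in all 5 IL-5 pre-stimulation cells, and in those of the IL-13 index at 20.3, 82.9, 0, 0 and 0 CPM. Irf3, a sensor-activated factor that is held ready in many cell types, was read in 36 cells. Its highest level was 198 CPM in IL-13 silent cells, of which replicate 6 held 84.8%, and without that cell the level was 34.1 CPM. It was at 0 in all 16 cells of the pre-stimulation and 30 min groups of the IL-5 index and in 4 of 5 IL-13 pre-stimulation cells, with 85.3 CPM in replicate 1. Irf7, the amplifier of the type I interferon response, was read in 2 of 120 cells only, with 31 reads in replicate 5 of the IL-13 pre-stimulation cells and 28 reads in replicate 5 of the IL-13 60 min cells.

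**Figure D3:**
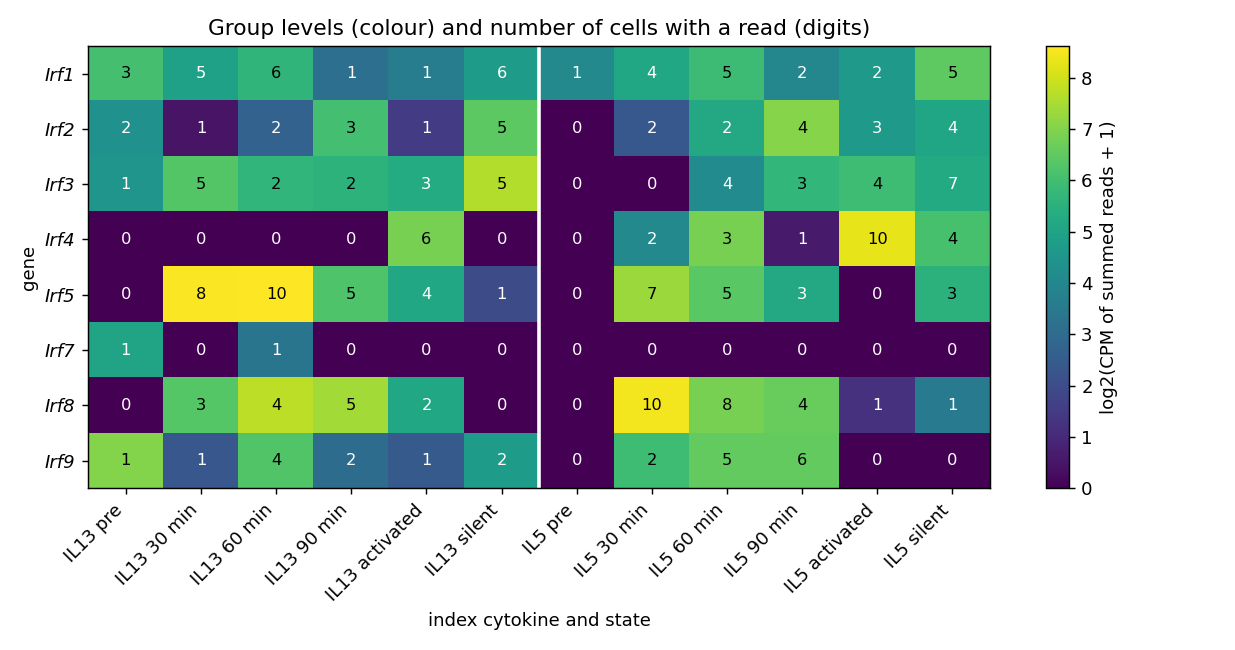
Group level of each of the 8 genes (rows) in each state of the IL-13 and IL-5 index (columns), with colour for log2(CPM of summed reads + 1) and the digit in each square for the number of cells with a read, of 5 in pre-stimulation groups and 11 in the others. Colours are read along a row, and the brightest square of the Irf5 row is IL-13 at 60 min, next to 30 min, that of the Irf8 row IL-5 at 30 min and that of the Irf4 row IL-5 activated, while the Irf7 row is dark except in 2 groups.

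Some gene bodies share bases with a neighbour, and the strand setting of the counting is not given. The last 1045 bases of Irf5 are shared with the end of Tnpo3 on the opposite strand, and libraries of 3′ ends read mostly such ends. Tnpo3 was read in 45 cells, 17 of them among the 46 cells with Irf5. Tnpo3 stood at 111 CPM in IL-5 pre-stimulation cells, where Irf5 was 0, and for IL-13 at 72.1 CPM at 30 min, 58.8 CPM at 60 min, where all 5 cells with Tnpo3 also had Irf5, and 123 CPM in the silent state. Its part in the Irf5 counts was not tested. Irf9 shares its first 123 bases with the end of Rnf31 on the same strand, and 5 of 24 cells with Irf9 also had Rnf31. Irf3 shares 1065 bases with Bcl2l12 on the opposite strand, and 8 of its 36 cells also had Bcl2l12. The overlapping genes of Irf1 and Irf8 had 0 reads.

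The number of Irf genes read in a cell, out of 8 and after thinning to 100000 reads, was counted next. In pre-stimulation cells the median was 1 in the IL-13 index (0 to 3) and 0 in the IL-5 index (0 to 1). It was 2, 3 and 1 at 30, 60 and 90 min in the IL-13 index and 3, 3 and 2 in the IL-5 index. The median was 1 in both activated and silent cells of the IL-13 index and 2 in both of the IL-5 index. On all reads it was 2 in IL-13 silent cells.

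The next comparisons take the ratio of CPM between groups. A gene was called past the fold where the higher group was at least 2 times the lower, had at least 10 CPM, and the 95% interval of the split of reads left out no change. A group under 3 reads was set to 3 reads, and folds against 0 reads are given as at least that value. These words refer to the floor of 3 reads and not to the 95% limit, which lies nearer to no change. For Irf5 at 30 min minus pre-stimulation in the IL-13 index the limit was a log2 ratio of 6.63, beside 6.94 at the floor. Since cells vary widely, most genes pass this rule, and the share of all genes that pass is given with the counts. A call was called kept where leaving out any 1 cell did not change it, which does not mean that the size of the ratio stayed. The 30 min, activated and silent comparisons share their pre-stimulation cells within an index.

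Between 30 min and pre-stimulation cells, the comparison that brackets the onset of secretion, all 7 members with enough reads passed the fold in the IL-13 index, against 73.0% of all genes tested, 3 higher and 4 lower. Of all genes 39.8% were higher and 33.2% lower. The 3 higher calls were kept and the 4 lower ones were not, and 25.1% of all genes had a kept call. Irf5 was at least 122-fold higher, Irf8 at least 25.6-fold higher and Irf3 3.59-fold higher (log2 ratio 1.84, 95% interval 1.19 to 2.56). The log2 ratio of Irf8 went from at least 4.68 to at least 2.59 without 30 min replicate 5, and that of Irf3 to at least 4.22 without pre-stimulation replicate 1. On the first date alone, the only one with pre-stimulation cells, Irf8 was at least 6.11 and Irf3 2.97. For IL-5 cells 5 of 5 passed, all higher, against 73.2% of all genes, 42.9% higher and 30.4% lower, and 3 were kept, against 27.9%. Irf8 was at least 142-fold, Irf5 at least 64.3-fold and Irf9 at least 24.3-fold higher. The log2 ratio of Irf9 went from at least 4.61 to at least 2.49 without 30 min replicate 11, and that of Irf5 from at least 6.01 to at least 5.01 without 30 min replicate 1. All Irf9 reads at 30 min were on the second date and all pre-stimulation cells on the first, where both groups were at 0, so this ratio compares different dates. The median log2 ratio of all genes tested was 0.10 and 0.33. Irf1 was 1.17 lower on the log2 scale in the IL-13 index (-1.17, -1.66 to -0.67) and 1.14 higher in the IL-5 index (0.44 to 1.92). Neither was kept, with log2 ratios of -0.19 without pre-stimulation replicate 3 for IL-13 and 0.39 without 30 min replicate 9 for IL-5, besides smaller moves with other cells. On the first date alone the values were -1.18 and -0.70, and with pre-stimulation cells of both indexes -0.37 and -0.14, so that the IL-5 direction turned with either. With TMM scaling the IL-13 value was -0.96, under 2-fold. The other lower calls for IL-13 rested on pre-stimulation replicate 5 (Irf7 and Irf9, the latter at least 0.036 without it). Irf2, at 1 read at 30 min, fell under the minimum of 10 CPM without pre-stimulation replicate 2. For IL-5, Irf4 rested on 30 min replicate 5, without which both groups were at or under 3 reads.

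Between activated and pre-stimulation cells, Irf4 was at least 36.5-fold higher for IL-13 and at least 127-fold higher for IL-5, and both calls were kept. Of 8 members tested for IL-13, 3 were higher and 4 lower, against 74.5% of all genes past the fold, 41.4% higher and 33.1% lower. Of these, Irf4 and Irf5 (at least 11.4-fold higher) and the lower Irf1 (log2 ratio -2.52, -3.14 to -1.91) were kept, against 28.6% of all genes. Irf5 went from at least 3.51 to at least 2.53 on the log2 scale without activated replicate 6, and Irf1 to -1.54 without pre-stimulation replicate 3 and at most -6.04 without activated replicate 3, which held all its activated reads. On the first date alone Irf1 was at -1.17. Irf8 was at least 10.9-fold higher, which rested on activated replicate 6, without which both groups were at or under 3 reads. The lower Irf7 and Irf9 rested on pre-stimulation replicate 5, with Irf9 at least at 0.13 without it, and the lower Irf2 fell under the minimum of 10 CPM without replicate 2, with a log2 ratio of -1.74. For IL-5, 3 of 4 tested members were higher and 0 lower, against 75.9% of all genes, 42.4% higher and 33.5% lower, and the kept calls were Irf4 and Irf3 (at least 24.6-fold higher), against 33.0%. Irf2 was at least 9.96-fold higher, but its log2 ratio went from at least 3.32 to at least 1.68 without activated replicate 11, with a level under the minimum of 10 CPM. Irf5 was at 0 in both groups of that index.

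Between silent and pre-stimulation cells, the 5 tested members of the IL-13 index all passed, 2 higher and 3 lower, against 71.9% of all genes, 44.8% higher and 27.1% lower, but only Irf2 was kept (log2 ratio 2.15, 1.47 to 2.91), against 23.9%. Its log2 ratio was 1.01 without silent replicate 6 and 3.80 without pre-stimulation replicate 2. The log2 ratio of Irf3 went from 3.19 to 0.65 without silent replicate 6, that of Irf1 from -1.35 to -0.37 without pre-stimulation replicate 3, and that of Irf9 from -2.29 to at least 2.72 without pre-stimulation replicate 5, which also held all Irf7 reads. For IL-5, 6 of 6 were higher, against 73.3% of all genes past the fold, 43.5% higher and 29.9% lower, and Irf1, Irf3, Irf4 and Irf5 were kept, against 28.0%. Irf1 was 5.70-fold higher there (log2 ratio 2.51, 1.84 to 3.27), and Irf3, Irf4 and Irf5, at 0 before stimulation, were at least 15.0-fold, 27.4-fold and 18.2-fold higher. The log2 ratio of Irf4 went from at least 4.78 to at least 3.32 without silent replicate 5, that of Irf5 from at least 4.18 to at least 3.27 without silent replicate 11, and that of Irf1 to at least 4.77 without pre-stimulation replicate 4, which held all its pre-stimulation reads. On the first date Irf4 was at least 5.70 and Irf5 at least 3.32. Irf2 was at least 1.98 without silent replicate 8, with a level of 9.77 CPM, under the minimum. Irf8 rested on silent replicate 6, which held all its reads.

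Between activated and silent cells, which were recovered at the same time, Irf4 was higher in the cells that secreted in both indexes. It was at least 100.3-fold higher for IL-13 and 4.64-fold higher for IL-5 (log2 ratio 2.21, 2.00 to 2.43), kept in both. By date the log2 ratio was at least 5.46 and at least 5.76 for IL-13, and 1.85 and at least 6.64 for IL-5, where silent cells of the second date had 0 reads. Without silent replicate 5 the IL-5 log2 ratio was 3.67. Irf1 was lower in activated cells in both indexes, by a log2 ratio of -1.17 (-1.79 to -0.57) and -1.91 (-2.27 to -1.56), of which the IL-5 value was kept. The IL-13 value was -0.99 with TMM scaling, under 2-fold, and by date -0.90 and at most -2.82. Activated replicate 3 held all 37 activated reads of IL-13, and on leaving out any 1 cell the log2 ratio ranged from at most -4.69 to -0.87. For IL-5, replicate 5 held all but 1 of the 89 activated reads, so the ratio is lower still without it. On the first date the IL-5 value was -0.995, under 2-fold. In all, 7 of 7 tested members passed in the IL-13 index, 3 higher and 4 lower, against 65.0% of all genes, 27.6% higher and 37.4% lower, and 3 were kept, against 22.8%. For IL-5, 4 of 6 passed, 1 higher and 3 lower, against 55.7%, 24.8% higher and 30.9% lower, and 3 were kept, against 18.2%. Irf5 was 11.7-fold higher in IL-13 activated cells (log2 ratio 3.55, 2.52 to 4.80) and at least 56.0-fold lower in those of the IL-5 index, both kept, and the difference between the indexes was not tested. For IL-13 the Irf5 value was 2.57 without activated replicate 6 and at least 4.86 without silent replicate 1, with 2.24 on the first date and at least 4.19 on the second, and for IL-5 it went from at most -5.81 to at most -4.89 without silent replicate 11. Irf2 was lower in IL-13 activated cells (log2 ratio -5.54, -7.00 to -4.39, kept), with -4.40 without silent replicate 6 and at most -6.42 without activated replicate 1. Irf3 and Irf9 of IL-13 turned from -2.36 to 0.17 and from -2.59 to 0.56 without silent replicates 6 and 9. Irf8 was at least 29.8-fold higher in activated cells for IL-13, on the reads of activated replicate 6, and 7.79-fold lower for IL-5, where the log2 ratio turned from -2.96 to at least 0.37 without silent replicate 6, which held all silent reads.

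Between 30 min and activated cells, Irf5 was higher and Irf4 lower at 30 min in both indexes. Irf5 was 10.8-fold higher for IL-13 (log2 ratio 3.43, 3.15 to 3.72), with 3.44 on the first and 3.43 on the second date, and at least 198-fold higher for IL-5. Irf4 was at least 101-fold lower for IL-13 and 20.3-fold lower for IL-5 (log2 ratio -4.35, -4.76 to -3.96), where its few 30 min reads were on the first date. All 4 of these calls were kept. Irf5 was at 4.41 on the log2 scale without activated replicate 6 for IL-13 and went from at least 7.63 to at least 6.64 without 30 min replicate 1 for IL-5. Of the 55 reads of Irf4 at 30 min for IL-5, all but 2 were in replicate 5. Irf8 was 262-fold higher at 30 min in the IL-5 index (log2 ratio 8.03, 6.81 to 9.66, kept), with 7.64 on the first date and at least 7.15 on the second. For IL-13 its log2 ratio was 1.23 (0.89 to 1.58), but at least 6.49 on the first date and at most -4.97 on the second, and -0.85 without replicate 5 of the 30 min cells. In all, 5 of 5 tested members passed in the IL-13 index, 4 higher and 1 lower, against 67.2% of all genes, 32.5% higher and 34.7% lower, of which 2 were kept, against 26.9%. For IL-5, 6 of 7 passed, 3 higher and 3 lower, against 59.6%, 32.1% higher and 27.5% lower, and 5 were kept, against 22.6%, the others being Irf9 (at least 75.0-fold higher, with a log2 ratio from at least 6.23 to at least 4.12 without 30 min replicate 11) and Irf3 (at least 72.0-fold lower). Irf2 went from -2.55 to -0.91 without activated replicate 11 for IL-5, and Irf1 from 1.35 to 0.79 without 30 min replicate 11 for IL-13, where its ratio was -0.0098 on the first date and at least 4.26 on the second. Irf3 for IL-13, at 1.02, lay between 0.53 and 0.93 without any 1 of 12 cells, of which replicate 3 at 30 min gave the lowest value. Its ratio was 3.84 on the first date and -1.23 on the second, and 0.997 with TMM scaling, under 2-fold.

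**Figure D4:**
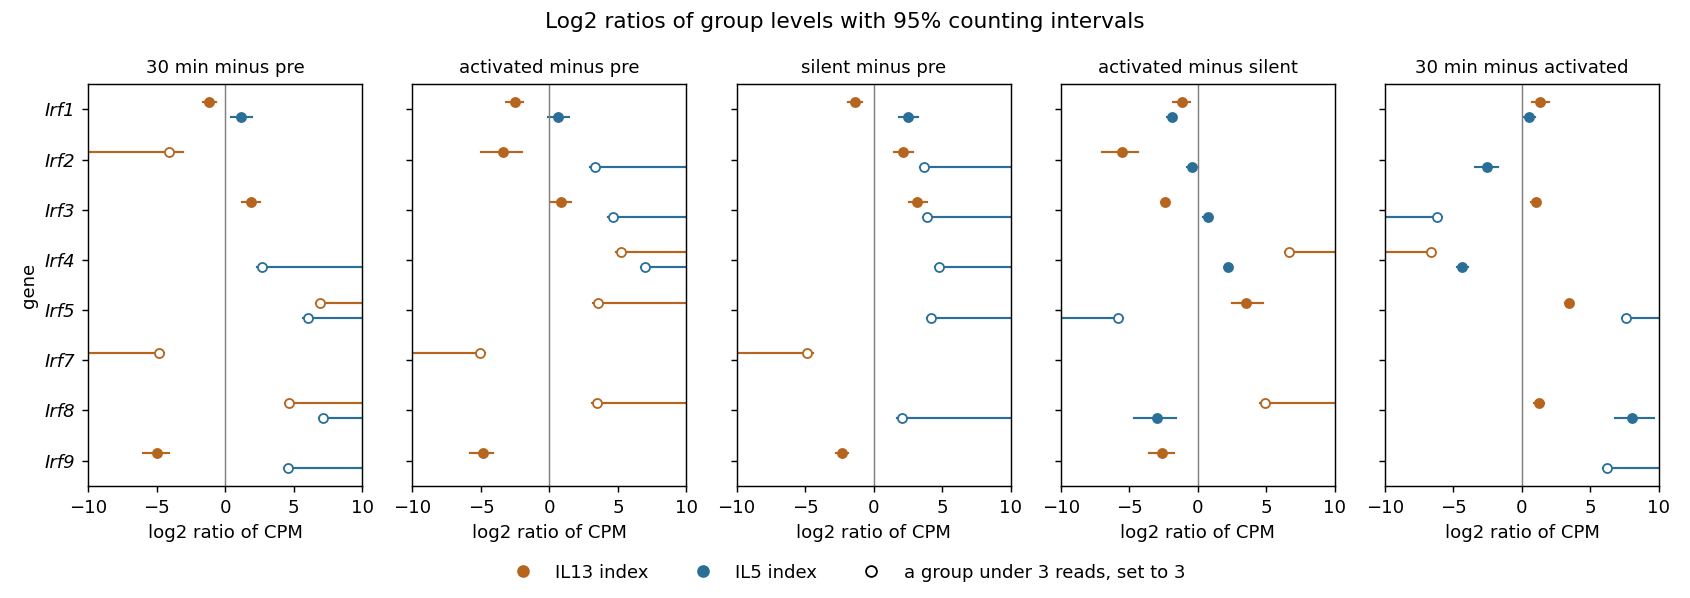
Log2 ratio of CPM (horizontal axis) of each Irf gene (vertical axis) in 5 comparisons, with the IL-13 index in brown and the IL-5 index in blue and lines for 95% counting intervals, which run to the edge where a group had 0 reads. Open points mark ratios in which a group under 3 reads was set to 3. Irf5 and Irf8 lie right of 0 in the first and last panels, Irf4 lies right of 0 in the activated minus silent panel and left of 0 in the last, and Irf1, Irf2 and Irf9 lie on both sides.

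Among genes whose group levels ran most like each member over the 12 groups (Pearson r of log2(CPM + 1), 2267 genes with a mean of at least 50 CPM and a read in at least 50% of the cells of their highest group), Irf5 was itself the third for Irf8 (r = 0.916). Irf8 was closest to Adora2b, an adenosine receptor (r = 0.949), and Dennd4a (r = 0.933). Irf5 was closest to Dennd4a (r = 0.935), Adam8, a membrane metalloprotease (r = 0.926), and Adora2b (r = 0.918). All of these genes were at 0 in both pre-stimulation groups, and the 12 points share libraries and depth. Adora2b, for example, ran from 0 before stimulation to 184 CPM at 30 min and 4.29 CPM in activated cells of the IL-5 index. Irf4 was closest to Sub1 (r = 0.881), Atp5g3 of the mitochondrial ATP synthase (r = 0.864) and Eef1e1 (r = 0.853), and Eef1e1 stood at 266 and 277 CPM in activated cells of the IL-13 and IL-5 index against 64.3 and 54.4 CPM before stimulation. Irf9 was closest to Ppp2ca, Nmb and Sytl2 (r = 0.861, 0.812 and 0.782). Irf1 was closest to Sugt1, Pank2 and Cmpk1 (r = 0.812, 0.797 and 0.738), Irf2 to Mrps26, Eif4a2 and H2-T23 (r = 0.808, 0.796 and 0.789), and Irf3 to Bola3, Nop14 and Med30 (r = 0.837, 0.810 and 0.788). Of the 21 genes so named, 6 were also among the 3 nearest by Spearman's rank correlation (Adora2b for Irf8, Eef1e1, Ppp2ca, Nmb, Pank2 and Cmpk1), so most names depend on the measure. For Irf7 the mean level was too low for this comparison.

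The other genes of the interferon pathway were taken as lists. Of 8 interferon ligand genes, 0 had a read in any of the 120 cells. Of 9 interferon receptor and JAK kinase genes, 7 were tested between activated and pre-stimulation cells in each index, with 4 higher and 2 lower in the IL-13 and 0 higher and 2 lower in the IL-5 index. The shares of all genes were 41.4% higher and 33.1% lower for IL-13 and 42.4% and 33.5% for IL-5. Jak2, a kinase of the interferon gamma receptor, was 8.72-fold higher in IL-13 activated cells (145 against 16.6 CPM, kept) but was not past the fold in the IL-5 index. Ifnar1, a chain of the type I receptor, was at 13.5 CPM before stimulation and 0 in IL-13 activated cells, and at 23.9 and 8.04 CPM in the IL-5 index. Ifngr1, the ligand-binding chain of the interferon gamma receptor, was lower in IL-13 activated cells (log2 ratio -4.14, -4.65 to -3.67), though its pre-stimulation reads were in 1 cell, and Ifngr2 went from 0 to 11.9 CPM. Ifnar2 was at or below 11.3 CPM in both states of both indexes. Among IL-5 cells Tyk2, a kinase of the type I receptor, was lower (log2 ratio -1.61, -2.02 to -1.19). None of these calls but that of Jak2 was kept.

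Stat2, a partner of Irf9, was read in 2 cells at 30 min and 2 silent cells of the IL-5 index, at 20.0 and 19.2 CPM, and by 1 read elsewhere.

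Of 14 adaptors and kinases upstream of Irf proteins, 11 were tested between activated and pre-stimulation cells, with 4 higher and 5 lower in the IL-13 index and 3 higher and 6 lower in the IL-5 index, beside 41.4% higher and 33.1% lower, and 42.4% and 33.5%, of all genes. Ikbke, a kinase that phosphorylates Irf3 and Irf7, was at 0 before stimulation and at least 17.8-fold and 9.20-fold higher in activated cells, both kept. It was read at 116 and 90.9 CPM at 30 min of the IL-13 and IL-5 index. Myd88, the adaptor shared by Toll-like and IL-33 receptors, was 10.4-fold higher in IL-5 activated cells (log2 ratio 3.37, 2.64 to 4.22, kept), and in the IL-13 index went from 1 read to 42.0 CPM (unfloored log2 ratio 5.34, 2.84 to 10.7). The lower genes with the largest ratios were Irak4 (at least 108-fold, kept) and Irak1 (5.45-fold) in the IL-13 index and Irak2 (42.8-fold, kept) and Ticam1 (at least 38.0-fold) in the IL-5 index.

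Of 11 binding partners and co-regulators, 6 were tested, with 2 higher and 3 lower in the IL-13 index and 2 higher and 4 lower in the IL-5 index, beside the same shares of all genes (41.4% and 33.1%, 42.4% and 33.5%). With edgeR's TMM scaling the IL-13 split became 2 higher and 0 lower. Batf, the AP-1 factor that Irf4 and Irf8 pair with, was at 122 CPM in IL-13 and 0 in IL-5 pre-stimulation cells. It stood at 3203 and 2277 CPM at 30 min, with a read in all 11 cells of each index, at 983 and 1201 CPM in activated cells and at 230.5 and 949 CPM in silent cells. Junb, its partner in AP-1, was 5.30-fold and 3.39-fold higher in activated than pre-stimulation cells, both kept. Irf2bp2, a co-repressor with Irf2, had a log2 ratio of -1.18 and -3.06, but in each index all its pre-stimulation reads were in 1 of 5 cells, so that the level without that cell was 0, and neither call was kept. Ikzf1 was lower in both indexes (-1.14, not kept, and -1.94, kept), from 127 to 57.3 CPM and from 171 to 44.5 CPM. Irf2bpl was lower in the IL-5 index (-3.02, kept) and had a log2 ratio of -0.11 in the IL-13 index. Spi1, the ETS partner of Irf4 and Irf8 in myeloid and B cells, had 0 reads in all 120 cells, and was named after its values were seen.

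Of 53 interferon-stimulated genes, those tested were more often lower than higher in activated against pre-stimulation cells. For IL-13, 15 were lower and 6 higher of 24, with a median log2 ratio of -1.60 against 0.27 for all genes, and 33.1% of all genes were lower. For IL-5, 17 were lower and 4 higher of 27, with a median of -2.57 against 0.26, and 33.5% of all genes were lower. Of the lower calls 5 and 6 were kept and of the higher ones 1 and 2, beside 28.6% and 33.0% of all genes with a kept call in either direction. In silent against pre-stimulation cells the medians were -0.11 against 0.59 for all genes in the IL-13 index and -0.89 against 0.38 in the IL-5 index. Between 30 min and activated cells 15 were higher and 7 lower of 27 in the IL-13 index (median 1.60 against -0.14) and 15 higher and 3 lower of 25 in the IL-5 index (median 1.39 against 0.09), and 32.5% and 32.1% of all genes were higher. Of these calls 9 higher and 1 lower were kept for IL-13 and 9 higher and 2 lower for IL-5, beside 26.9% and 22.6% of all genes with a kept call. Both sets of medians use the same activated cells, so they are not separate evidence. At 30 min against pre-stimulation cells, 9 were higher and 7 lower of 24 in the IL-13 index (median -0.05 against 0.10 for all genes, of which 39.8% were higher and 33.2% lower) and 10 higher and 13 lower of 31 in the IL-5 index (median -0.07 against 0.33, with 42.9% higher and 30.4% lower).

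The summed level of the 53 genes was 2973 CPM before stimulation, 2293 CPM at 30 min and 1104 CPM in IL-13 activated cells, and 2345, 1620 and 989.8 CPM in the IL-5 index. Psmb8, an immunoproteasome subunit, held 32.5% and 18.1% of the pre-stimulation sums. Xaf1 went from 189 reads in 3 of 5 cells to 1 read in IL-13 activated cells (unfloored log2 ratio -9.29, -14.6 to -6.79, kept), and Isg20, an exonuclease, was at least 155-fold lower there (kept). For IL-5, Eif2ak2, the RNA-dependent kinase PKR, and Zbp1, a nucleic acid sensor, were at least 157-fold and 78.0-fold lower, neither kept. Bst2 (tetherin) was 12.6-fold higher in IL-13 activated cells (kept) and Trim25 at least 11.4-fold higher, and Ifi27 and Ifitm2 were at least 32.2-fold and 10.3-fold higher in IL-5 activated cells (both kept). The other index differed for some of these genes, and the differences were not tested. For IL-13, Ifi27 stood at 115 CPM before stimulation and 33.2 CPM in activated cells, Bst2 at 39.6 and 28.7 CPM in the IL-5 index, and Xaf1 at 1.65 and 4.82 CPM in the IL-5 index. The T cell list also stood lower in activated than in pre-stimulation cells, at 515 against 1740 CPM (IL-13) and 327 against 1884 CPM (IL-5). So did the B and plasma cell list, at 9.08 against 276 CPM and 21.4 against 235 CPM, and the ILC2 list, at 6370 against 12646 CPM and 8502 against 12143 CPM. The dendritic cell list stood higher, at 32.6 against 0 CPM and 9.38 against 0 CPM. The mast cell and basophil list was lower for IL-13 (48.5 against 301 CPM) and higher for IL-5 (233 against 37.1 CPM). The macrophage list was at 0 in both IL-13 groups and higher for IL-5 (38.3 against 0 CPM). The part of these lists in the result was not tested.

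**Figure D5:**
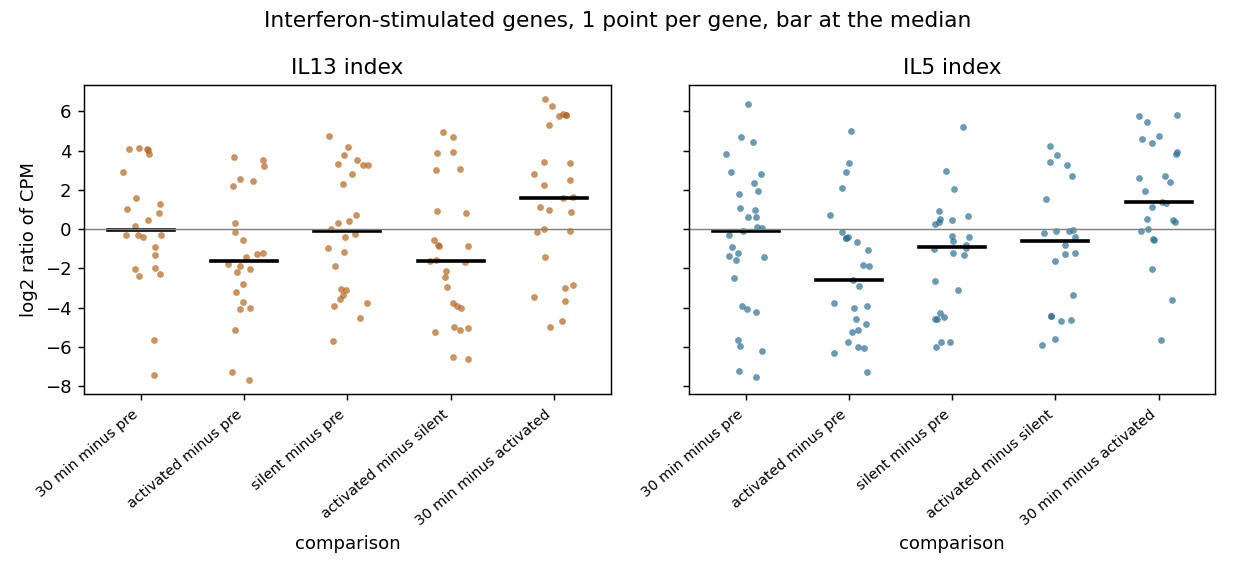
Log2 ratio of CPM (vertical axis) of each interferon-stimulated gene tested, 1 point per gene, in 5 comparisons of the IL-13 (left) and IL-5 (right) index, with bars at the median and groups under 3 reads set to 3. The medians of activated minus pre-stimulation cells lie at -1.60 and -2.57, and those of 30 min minus activated cells at 1.60 and 1.39.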

How the data were processed

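The SMART-Seq v4 3′ DE kit was used by the authors for 3′ libraries of 120 single ILC2, 5 or 6 libraries to a pool. The deposited values are raw read counts, for which read 1 was aligned to the mouse genome (mm10) by TopHat and counted by HTSeq. Strand setting, annotation release and versions are not given in the sources used here. The submitters' processing notes name TopHat2 and, beside mm10, the build GRCh38, but all 46078 identifiers are mouse genes. The 5 HTSeq summary entries, which hold 38.0% of the alignments counted, were left out of totals. Degraded or low-yield libraries had been removed by the authors.

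Source names and titles gave the groups. The counts of a group's cells were added up and expressed per 1000000 gene reads (CPM). Ratios used a floor of 3 reads, a fold of 2, a minimum of 10 CPM and Clopper-Pearson intervals of the split of reads, and counts of cells were made on all reads and, where stated, on cells thinned to 100000 reads. Symbols and positions came from GENCODE (GRCm38) and start windows from RefSeq (GRCm38.p6, all 8 genes matched, 250 bases before the start). The named genes were the 8 Irf genes, for each pathway list the 2 largest rises and 2 largest falls past the fold between activated and pre-stimulation cells of each index, Stat2, Batf and the 4 interferon receptor chains, and the 3 genes most like each Irf gene. Some genes of these lists are not reported here. The members, the lists and the motifs were chosen with earlier results of these data known. No 2 cells had identical counts. The ratio was tested on simulated data. The work was done in Python 3.11.15 (pandas 2.3.3, scipy 1.17.1, numpy 2.4.6, matplotlib 3.10.9), and R 4.3.3 gave scaling factors only, by DESeq2 1.42.0 and edgeR 4.0.16. Alternatives were other scaling factors, folds of 4, a minimum of 50 CPM, 5 reads for detection, single dates, pooled pre-stimulation or transition cells, no shallow cells, and leaving out each cell in turn. Counts of interferon-stimulated genes under these, levels summed over transition groups, pairs of genes in a cell at 5 reads, and calls kept on leaving out any 1 cell were added after the data were seen.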

Additional observations from a re-analysis of the deposited data

Results flagged for a closer look

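In the pre-stimulation groups of 5 cells, a cell was singled out where its gap to the nearest other cell on the log2(CPM + 1) scale, divided by the range of the group, exceeded Dixon's 95% critical value (0.71). The other groups, of 11 cells, were not checked. For continuous values chance singles out about 1 in 20 groups, but where all other cells are at 0 the ratio is 1 by construction, so this rate does not apply here. These were Irf1 in replicate 4 of the IL-5 index (64.8 CPM), and in the IL-13 index Irf3 in replicate 1 (85.3 CPM), Irf7 in replicate 5 (143.5 CPM) and Irf9 in replicate 5 (579 CPM). In each of these groups the other 4 cells were at 0. On the CPM scale Irf2 in replicate 2 of the IL-13 index (82.9 CPM, next cell 20.3 CPM) also exceeded it, with a ratio of 0.755.

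Log2 ratios past the fold pointed opposite ways in the IL-13 and the IL-5 index for 7 gene and comparison pairs, and the differences were not tested. The share of all genes that did so was not counted. In a comparison 55.7% to 75.9% of all genes passed the fold, in both directions, so this number is not a result about the Irf genes. For 30 min minus pre-stimulation cells these were Irf1 (-1.17 and 1.14, but -1.18 and -0.70 on the first date alone and -0.37 and -0.14 with pre-stimulation cells of both indexes) and Irf9 (-4.98 and at least 4.61). For activated minus pre-stimulation cells this was Irf2 (-3.39 and at least 3.32), and for silent minus pre-stimulation cells Irf1 (-1.35 and 2.51). For activated minus silent cells these were Irf5 (3.55 and at most -5.81) and Irf8 (at least 4.90 and -2.96), and for 30 min minus activated cells Irf3 (1.02 and at most -6.17). The Irf8 values rested on replicate 6 of the IL-13 activated and replicate 6 of the IL-5 silent cells. Only for Irf5 was the call kept in both indexes on leaving out any 1 cell. Index and title dates cannot be told apart in these pairs.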

How the results depend on the processing

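No paired analysis was possible because the results come from no test and no label says that a primer or sample number ties cells of different groups. The title dates are shared, within an index, by the transition, activated and silent groups. Ratios on single dates are therefore given above for some of their comparisons, but date was not used as a block. Values limited by depth are those of the 6 shallow cells and of genes near the 3-read floor, which is 2.47 to 3.11 CPM in the pre-stimulation groups of 5 cells. The exact 95% interval of a level of 0 in these groups runs up to 3.04 CPM for IL-5 and 3.83 CPM for IL-13. TMM and DESeq2 factors shifted all log2 ratios by -0.13 to 0.47. A call needs an absolute log2 ratio of at least 1, so no direction of a called member could change with either. Of ratios near 0, IL-13 Irf5 in silent minus pre-stimulation cells went from at least -0.042 to at least 0.012 with TMM and IL-13 Irf9 in 30 min minus activated cells from -0.093 to 0.088 with DESeq2 factors. With TMM, 3 calls of IL-13 came under 2-fold, Irf1 at 30 min minus pre-stimulation (-0.96) and activated minus silent (-0.99) and Irf3 at 30 min minus activated (0.997), and 3 ratios came past it, Irf3 for IL-13 (1.06) and Irf1 for IL-5 (1.08) in activated minus pre-stimulation cells and Irf2 for IL-5 at 30 min minus pre-stimulation (at least 1.13).

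On leaving out each cell in turn, the number of members past the fold ranged over 4 to 7 (30 min minus pre-stimulation; the lowest, 4, without replicate 5 of the pre-stimulation cells), 5 to 8 (activated minus pre-stimulation), 4 to 5 (silent minus pre-stimulation), 5 to 7 (activated minus silent) and 4 to 5 (30 min minus activated) for IL-13. For IL-5 the ranges in this order were 4 to 5, 2 to 4, 5 to 6, 4 to 5 and 5 to 7. The count of interferon-stimulated genes lower in activated than pre-stimulation cells ranged over 11 to 16 and 15 to 18, and that higher at 30 min than in activated cells over 14 to 17 and 13 to 16. With a minimum of 50 CPM the members past the fold numbered 3 in IL-13 activated minus pre-stimulation, 3 in IL-13 activated minus silent, 3 in IL-5 30 min minus pre-stimulation, 2 in IL-5 silent minus pre-stimulation and 2 in IL-5 activated minus silent, and the interferon-stimulated genes 11 lower in IL-5 activated cells and 8 higher at 30 min, as fewer genes are then tested. With a fold of 4, IL-13 30 min minus activated held 2. On the first date alone IL-13 activated minus silent held 4 and IL-5 30 min minus pre-stimulation 3, and with pre-stimulation cells of both indexes IL-5 activated minus pre-stimulation held 5. The shares of all genes past the fold were counted under the main rule only. The counts past the fold in this paragraph therefore have no such share beside them and are not results about the members. The median number of members per cell at 5 reads was 2 in IL-13 60 min, IL-5 30 min and IL-5 60 min cells, and 1 in IL-5 activated and IL-5 silent cells. In cells thinned to 50000 reads it was 1 in IL-5 activated, 1.5 in IL-5 silent, 2 in IL-5 60 min and 2 in IL-13 silent cells.

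Of the log2 ratios past the fold, the following changed sign, and ratios not past it did so too, such as IL-5 Irf1 in 30 min minus activated cells (0.54, and -2.54 on the first date). Beyond the cells or dates named the cause was not tested. On leaving out each cell, Irf9 of the IL-13 index ranged from at most -6.69 to at least 0.036 (30 min), at most -6.88 to at least 0.13 (activated) and -5.45 to at least 2.72 (silent minus pre-stimulation), with each highest value without replicate 5 of the pre-stimulation cells. Between IL-13 activated and silent cells, Irf3 ranged from -3.10 to 0.17, the highest without silent replicate 6, and Irf9 from at most -4.59 to 0.56, the highest without silent replicate 9. Between IL-13 30 min and activated cells, Irf1 was at -0.0098 on the first date, Irf3 at -1.23 and Irf8 at most at -4.97 on the second, and Irf8 ranged from -0.85 without 30 min replicate 5 to 6.26 without activated replicate 6, where 1 activated read was set to 3. In the IL-5 index Irf1 at 30 min minus pre-stimulation was at -0.70 on the first date and -0.14 with all pre-stimulation cells, Irf8 in activated minus silent cells from at most -3.51 to at least 0.37, the highest without silent replicate 6, and Irf2 at 0.82 with all 33 transition cells against activated cells.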
